A study of Mus musculus with 4 samples.

Results

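The genes described here are 10 members of the interleukin-6 cytokine system, taken by symbol: the ligands Il6, Lif and Il11, the shared signal chain Il6st (gp130), the receptor chains Il6ra, Lifr, Osmr and Il11ra1, the transcription factor Stat3 and the feedback inhibitor Socs3. All 10 were found among the 55487 genes of the deposited count table, and all 10 passed the filter on low counts that left 17120 genes for testing. Their RNA was measured by bulk sequencing of skeletal stem cells sorted from mice, with 2 libraries from ovariectomized mice (Ovx 1 and 2) and 2 libraries from sham-operated mice (Sham 1 and 2). Both groups were wild type and carry the time 8 weeks, which the labels do not tie to age or to surgery. The cells were freshly sorted from collagenase digests of the metaphysis of long bones after staining for the blood and vessel antigens CD45, Ter119 and Tie2 and for CD51, CD90, CD105, CD200 and 6C3, with a gate that the labels do not spell out. Neither strain nor age is given in the sources used here. The labels do not say which animals, single or pooled, a library holds, so the p-values measure the spread between these libraries, which may be technical.

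The ligands among the members all signal through gp130. Interleukin-6 binds Il6ra, interleukin-11 binds Il11ra1, and leukaemia inhibitory factor binds Lifr, while Osmr is a receptor chain of oncostatin M. Each of these complexes holds gp130. Kinases of the JAK family bound to gp130 phosphorylate STAT3, which enters the nucleus and switches on genes that include Socs3, whose protein binds gp130 and the kinases and stops the signal. In bone, these cytokines act on cells of the osteoblast lineage and raise their support of osteoclast formation, and interleukin-6 is a long-studied mediator of bone loss when oestrogen is lacking.

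The control region of Il6 is shown first, because Il6 had the greatest fold change of the 10 genes. Its promoter is a textbook case of joint control by AP-1, CREB, C/EBP and NF-kB proteins. The 250 bases before the RefSeq start of Il6 (chr5:30012864-30013113, plus strand, GRCm38.p6) are printed 5′ to 3′, with the letters found for these factors in capitals.
Il6: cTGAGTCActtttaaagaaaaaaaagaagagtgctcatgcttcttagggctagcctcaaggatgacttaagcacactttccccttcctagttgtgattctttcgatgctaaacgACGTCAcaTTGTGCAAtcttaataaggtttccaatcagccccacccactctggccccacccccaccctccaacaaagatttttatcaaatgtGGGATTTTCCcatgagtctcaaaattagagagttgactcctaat
The capitals mark, in order, an AP-1 motif (TGANTCA, bases 249 to 243 before the start), a CRE core (TGACGT, read on the other strand, 136 to 131), a C/EBP motif (TTGNGCAA, 128 to 121) and a kB motif (GGG, then NN, then TTTCC, 44 to 35), and none of them overlaps another. Searched on both strands, these letters stood in 6.75%, 6.47%, 2.61% and 1.41% of the 32851 RefSeq promoter windows of the same 250 bases.

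All 10 genes had a promoter entry, 3 of them with 2 windows. The AP-1 letters were found for 3 of the 10, which were the 3 ligands. Their surroundings are given 5′ to 3′ on the gene's own strand, with the motif in capitals.
Il6: cTGAGTCActtttaaagaa
Il11: aggagggagggTGAGTCAggatgtgtcag
Lif: ccagtcagctgTGACTCAggccatagtgg
They lie at chr5:30012864-30012882 (plus strand), chr7:4778222-4778250 (minus strand, before one of 2 RefSeq starts of Il11) and chr11:4257329-4257357 (plus strand). The STAT motif TTCNNNGAA, present in 7.02% of all windows, was found in the Socs3 window alone. The RefSeq start of Socs3 lies inside the gene as GENCODE annotates it. So does the start that follows the AP-1 letters of Il11, and so do the starts of Osmr, Lifr and Il11ra1. The start of Lif lies just inside its gene. A match of letters is a description of the sequence and not evidence of binding.

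The libraries held 23228031 and 18291436 counts (Ovx) and 22935095 and 23721078 counts (Sham), and 1 count was worth between 0.0423 and 0.0519 CPM. Levels are CPM scaled by TMM, and a gene is called changed where the Benjamini-Hochberg adjusted p of edgeR's quasi-likelihood test, taken over all genes, is under 0.05. Of the 17120 genes, 510 were higher after ovariectomy and 206 lower, so higher genes made up 71.2% of the calls (82.2%, from 718 higher and 156 lower, with library totals as the only scaling). The libraries of each pair differed by more than sampling noise (chi-square over its degrees of freedom 13.8 in Ovx and 28.6 in Sham). Skeletal genes were abundant, with the cartilage collagen gene Col2a1 at 40259 and 36879 CPM in Ovx libraries and 73169 and 65394 CPM in Sham libraries. Of the stained antigens, Ptprc (CD45) was at 3.55 and 6.44 CPM in Ovx and 9.55 and 5.25 CPM in Sham libraries, Tek (Tie2) at 7.53 and 9.76 CPM in Ovx and 0.223 and 5.52 CPM in Sham libraries, and Cd200 at 172.5 and 154.7 CPM in Ovx and 236.6 and 304.6 CPM in Sham libraries. Eng (CD105) was at 75.2 and 83.1 CPM in Ovx and 21.6 and 52.1 CPM in Sham libraries, and Enpep (6C3) at 4.40 and 3.64 CPM in Ovx and 1.52 and 1.91 CPM in Sham libraries, neither called, while Itgav (CD51) overlapped and Thy1 (CD90) did not reach the filter. Cd200 was the only stained antigen to be called, with less of its RNA in both Ovx libraries. Its adjusted p from edgeR was 0.0462, and 0.0531 with library totals as the only scaling, where the call was lost. Whether the sorted populations of the groups were alike was not tested. In bulk RNA, fewer cells of a type and less RNA per cell cannot be told apart.

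Of the 10 family members, 3 rose after ovariectomy (Il6, Osmr and Socs3) and 0 fell, against 2.98% of all genes tested called higher and 1.20% called lower. At an unadjusted p under 0.05 there were 5 members, which adds Lif and Il6ra, against 3154 of all 17120 genes. The median log2 fold change of the 10 members was 0.42, beside -0.02 for all genes tested. Both Ovx libraries lay above both Sham libraries for 6 members and below them for 1 member, where 25.5% and 23.9% of all genes did so (49.3% in either direction). Under other settings 5 members were called higher, Lif and Il6ra joining, with library totals (4.19% of all genes called higher), DESeq2 (5.43%), limma-voom (3.70%), no filter (3.08%), a mean of at least 5 CPM (6.93%) and a replicate block (4.35%). With upper-quartile scaling (2.79%) there were 2, and with RLE size factors (2.98%) 3. Without either Ovx library edgeR called 0 genes, with 1788 and 1618 genes at an unadjusted p under 0.05, and the calls of Il6, Osmr and Socs3 were lost with their sign kept.

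**Figure D1:**
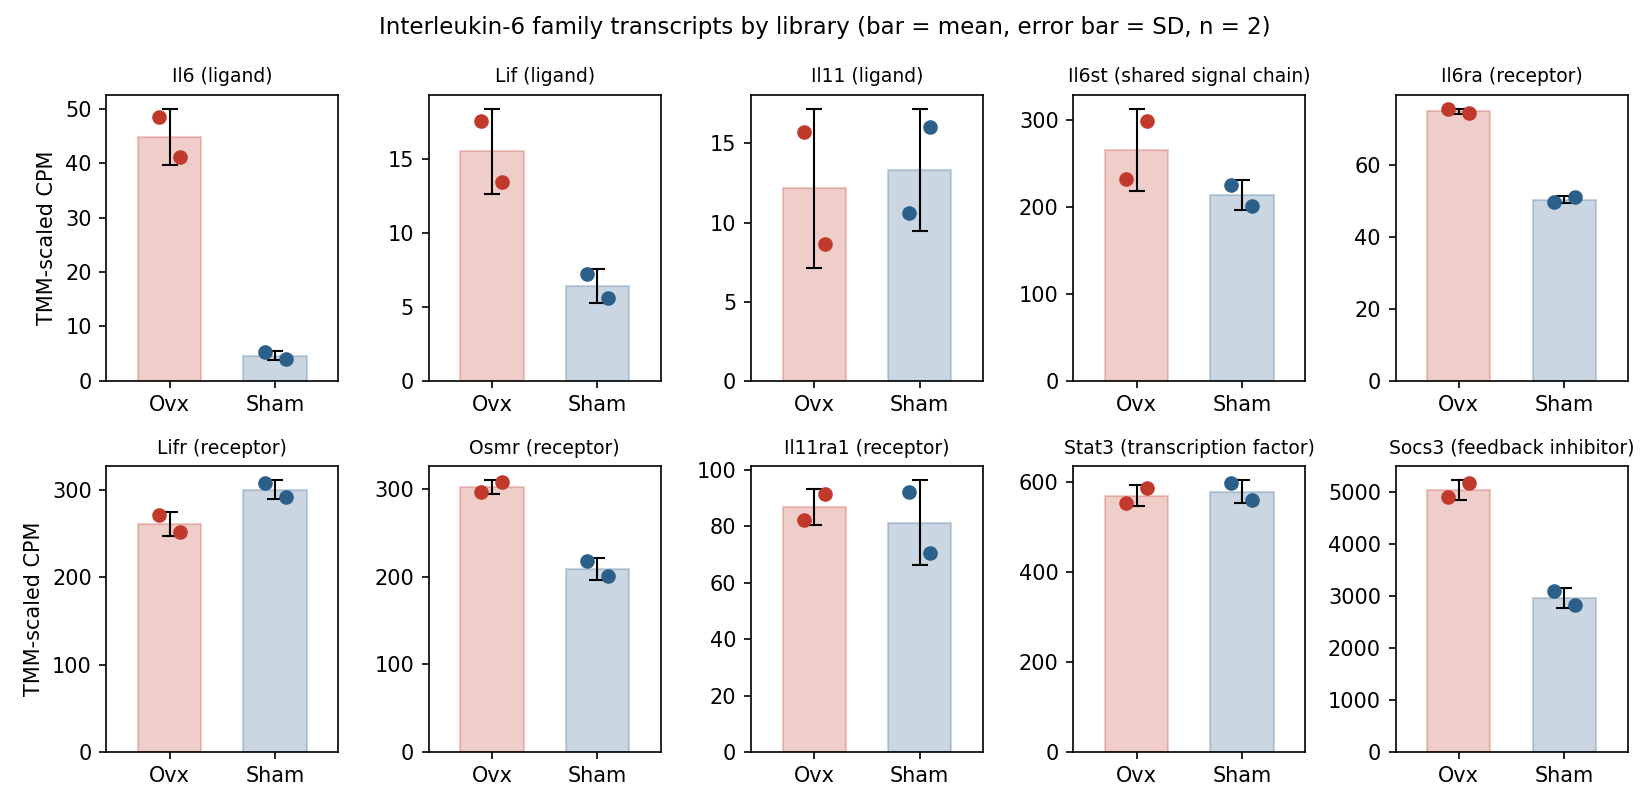
TMM-scaled CPM (vertical axes, each from 0) of the 10 family members in the 2 Ovx and 2 Sham libraries; points are libraries, bars means and error bars SD. Il6 lies between 41.1 and 48.5 CPM in Ovx and between 4.01 and 5.22 CPM in Sham libraries, while the groups of Il11, Il11ra1 and Stat3 overlap.

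Among the ligands, Il6 (ENSMUSG00000025746, chromosome 5, 30013114 to 30019981, plus strand, GRCm38) set itself apart. It had 1148 and 792 counts in Ovx libraries, against 117 and 90 counts in Sham libraries, or 48.5 and 41.1 CPM against 5.22 and 4.01 CPM. Both Ovx libraries stood far above both Sham libraries, and the difference between groups was many times the spread within either. Il6 rose 9.71-fold (log2 fold change 3.28 ± 0.23 SE, edgeR adjusted p = 0.00115), which made its p the 18th smallest of 17120. Its log2 fold change lay between 3.11 and 3.49 under all 12 alternatives tried, those that leave out a library included.

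Lif (chromosome 11, 4257557 to 4272514, plus strand), a cytokine named for its effect on leukaemia cells that also acts on bone cells, was at 17.5 and 13.5 CPM in Ovx libraries and at 7.23 and 5.61 CPM in Sham libraries. The groups did not overlap. Its log2 fold change of 1.27 ± 0.28 SE, 2.42-fold, missed the threshold narrowly (edgeR adjusted p = 0.0529). It was called with DESeq2 (adjusted p = 0.00900), with limma-voom (0.0336) and in 6 further alternatives, at fold changes between 1.08 and 1.47 on the log2 scale over all 12.

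Il11 (chromosome 7, 4772373 to 4782859, minus strand), which in bone supports both osteoblast and osteoclast formation, did not share this pattern. Its CPM were 15.7 and 8.62 in Ovx libraries and 10.6 and 16.0 in Sham libraries. The groups overlapped, and the libraries of each group lay further apart than the group means. The log2 fold change was -0.12 ± 0.35 SE (edgeR adjusted p = 0.918), with a sign that turned when Ovx 2 (0.26) or Sham 2 (0.22) was left out.

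The order of the 3 ligands differed between the groups. Per kilobase of exon, Il6 made up 63.3% and 70.1% of the summed level of the 3 ligands in Ovx libraries, against 24.2% and 15.5% in Sham libraries. The ratio of Il6 to Il11 per exon length was 2.65 and 4.09 in Ovx libraries and 0.423 and 0.214 in Sham libraries, and that of Il6 to Lif 4.96 and 5.48 in Ovx libraries and 1.29 and 1.28 in Sham libraries. No p is given for these ratios, since an exact two-sided permutation test of 2 against 2 libraries cannot go below 0.333.

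The shared chain Il6st (chromosome 13, 112464070 to 112510086, plus strand) is needed by the receptor complexes of all member ligands. It was at 233 and 299.6 CPM in Ovx libraries and at 226 and 202 CPM in Sham libraries. The Ovx libraries lay above the Sham libraries, but Ovx 1 only just. The log2 fold change of 0.32 ± 0.15 SE did not pass (edgeR adjusted p = 0.330), and without Ovx 2 it was 0.14.

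Of the receptor chains, Osmr and Il6ra had the greater fold changes. Osmr (chromosome 15, 6813577 to 6874969, minus strand) had 297 and 308 CPM in Ovx libraries, against 218 and 200.3 CPM in Sham libraries. The groups were clear of each other by several times their spread. Osmr rose 1.45-fold (log2 fold change 0.53 ± 0.11 SE, edgeR adjusted p = 0.0484), a call that was lost with upper-quartile scaling (0.0684) and without Sham 2 (0.0595).

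Il6ra (chromosome 3, 89864059 to 89913196, minus strand), the chain that gives a cell its own response to interleukin-6, was at 75.6 and 74.6 CPM in Ovx libraries and at 49.7 and 51.2 CPM in Sham libraries. Each pair lay close together and the groups did not overlap. The log2 fold change of 0.57 ± 0.13 SE, 1.49-fold, fell just short (edgeR adjusted p = 0.0587). Il6ra was called under 7 of the 12 alternatives, among them DESeq2 (adjusted p = 0.0121) and limma-voom (0.0356). It shares 2.8% of its exon length with Gm42809 on the opposite strand.

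Lifr (chromosome 15, 7090614 to 7197489, plus strand), the chain that carries the signal of leukaemia inhibitory factor, had the only pair of Ovx libraries below the Sham pair. It was at 271 and 252 CPM in Ovx libraries and at 308.5 and 293 CPM in Sham libraries. The gap was small and did not pass (log2 fold change -0.20 ± 0.11 SE, edgeR adjusted p = 0.417). Lifr and Osmr are near neighbours on chromosome 15 and lie on opposite strands. Per exon length, the ratio of Osmr to Lifr was 0.974 and 1.09 in Ovx libraries and 0.628 and 0.609 in Sham libraries.

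Il11ra1 (chromosome 4, 41699989 to 41769474, plus strand) was at 82.2 and 91.3 CPM in Ovx libraries and at 92.1 and 70.7 CPM in Sham libraries. The groups overlapped, with a log2 fold change of 0.09 ± 0.16 SE (edgeR adjusted p = 0.854) whose sign turned without Sham 2 (-0.07). Its near copy Il11ra2 stands in the table in 3 rows with at most 3 counts each in a library. The sources used here do not say how reads that map to several places were counted, so the level of Il11ra1 carries that uncertainty.

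**Figure D2:**
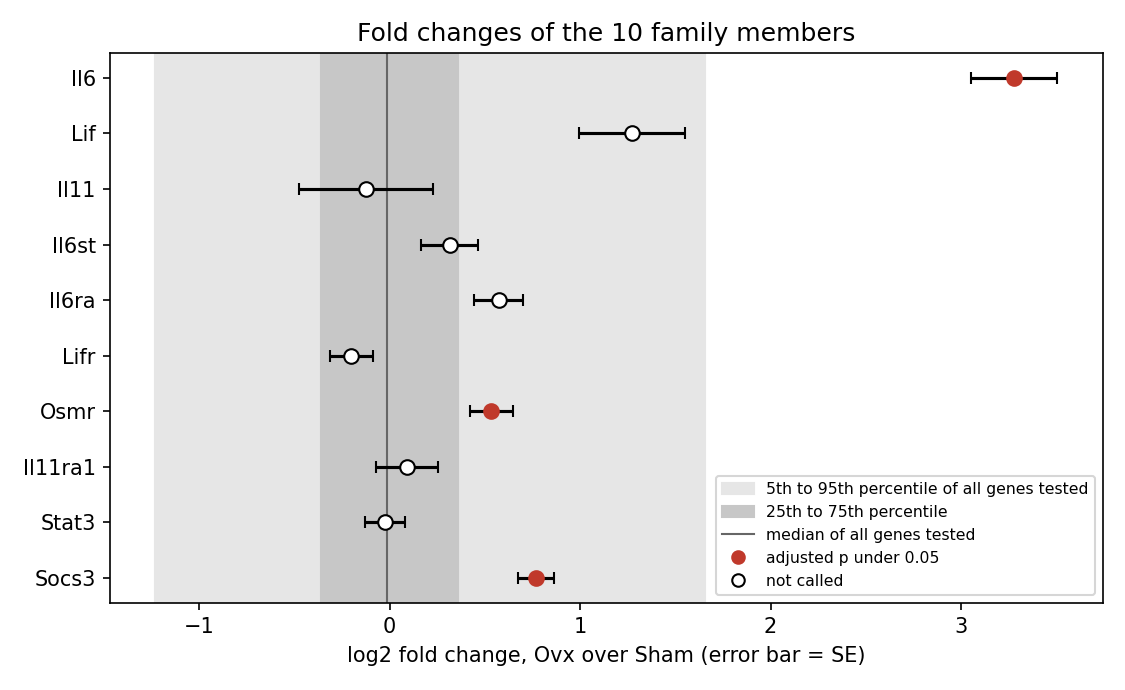
Log2 fold change, Ovx over Sham, of the 10 family members (horizontal axis, error bars SE), filled where the edgeR adjusted p is under 0.05, over the range of all 17120 genes tested (grey bands, 5th to 95th and 25th to 75th percentile). Il6 at 3.28 lies beyond the 95th percentile of all genes at 1.66, and the other members lie within the outer band.

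Downstream of the receptors, Stat3 (chromosome 11, 100885098 to 100939540, minus strand) showed the smallest fold change of the 10 members. It was at 553 and 586 CPM in Ovx libraries and at 597 and 560.4 CPM in Sham libraries. The groups overlapped, with a log2 fold change of -0.02 ± 0.11 SE (edgeR adjusted p = 0.954) that turned to 0.08 with library totals as the only scaling. These are RNA levels, and phosphorylated STAT3 protein was not measured here.

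Socs3 (chromosome 11, 117966079 to 117970047, minus strand), a gene that STAT3 switches on and whose protein then stops gp130 signalling, was the most abundant member by far. It had 116143 and 99846 counts in Ovx libraries, against 69557 and 63421 counts in Sham libraries, or 4911 and 5186 CPM against 3102 and 2824 CPM. The groups did not overlap. Socs3 rose 1.70-fold (log2 fold change 0.77 ± 0.09 SE, edgeR adjusted p = 0.00685). Its fold change stayed between 0.71 and 0.87 on the log2 scale under all 12 alternatives. The ratio of Socs3 to Stat3 per exon length was 29.3 and 29.2 in Ovx libraries and 17.1 and 16.6 in Sham libraries, so it differed by much more between groups than within them.

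Per kilobase of exon, the members spanned a wide range of levels. In Ovx libraries the order of mean levels was Socs3 (1746 ± 67.3 CPM per kilobase, SD, n = 2), Stat3 (59.8 ± 2.42), Osmr (24.99 ± 0.643), Lifr (24.3 ± 1.30), Il6st (24.0 ± 4.27), Il11ra1 (19.4 ± 1.43), Il6 (18.5 ± 2.16), Il6ra (8.69 ± 0.0794), Il11 (5.85 ± 2.42) and Lif (3.56 ± 0.666). In that order Osmr, Lifr and Il6st overlapped with their neighbours, as did Il11ra1 and Il6, and all other neighbours were apart in both libraries. In Sham libraries the order was Socs3 (1025 ± 68.2 CPM per kilobase), Stat3 (60.8 ± 2.73), Lifr (27.9 ± 1.05), Il6st (19.3 ± 1.53), Il11ra1 (18.2 ± 3.38), Osmr (17.3 ± 1.02), Il11 (6.39 ± 1.85), Il6ra (5.84 ± 0.124), Il6 (1.90 ± 0.353) and Lif (1.48 ± 0.263). Il6st, Il11ra1 and Osmr overlapped there with their neighbours, as did Il11 with Il6ra and Il6 with Lif. Il6 thus stood beside the receptor chains in Ovx libraries and beside Lif in Sham libraries, and its percentile among all tested genes was 89.1 in Ovx and 49.5 in Sham cells.

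**Figure D3:**
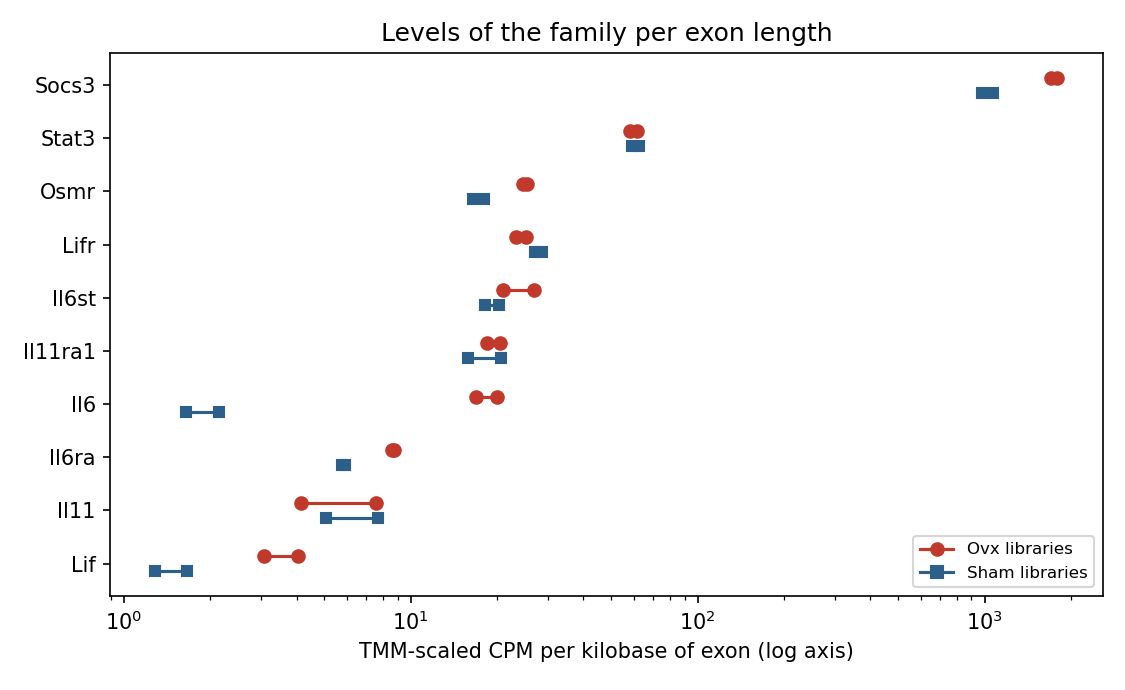
TMM-scaled CPM per kilobase of exon (log axis) of the 10 family members, with each library as a point, circles for Ovx and squares for Sham, and a line joining the 2 libraries of a group. Socs3 lies above all other members in both groups, and Il6 is the member whose groups lie furthest apart.

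Interleukin-6 needs Il6ra on the same cell unless Il6ra is shed. The ratio of Il6 to Il6ra per exon length was 2.29 and 1.96 in Ovx libraries and 0.374 and 0.279 in Sham libraries, so the ligand transcript exceeded that of its receptor in both Ovx libraries and in neither Sham library. Adam10 and Adam17, the proteases that shed Il6ra, belong to a list of 17 brakes and sheddases written for this pathway. Their values are printed after they were seen. Adam10 was at 72.2 and 83.3 CPM in Ovx and 36.4 and 57.1 CPM in Sham libraries (edgeR adjusted p = 0.126). Adam17 was at 53.9 and 59.4 CPM in Ovx and 39.4 and 51.0 CPM in Sham libraries (edgeR adjusted p = 0.380). None of the 17 was called by edgeR, against 4.18% of all genes called in either direction, and the median log2 fold change was 0.29. Across other scalings, tools, filters and the replicate block 0 to 2 of them were called higher, and 3 without Sham 1. Socs1, a second feedback inhibitor of JAK kinases, had the smallest p of the list. It was at 176 and 124 CPM in Ovx libraries and at 103 and 84.7 CPM in Sham libraries (log2 fold change 0.67 ± 0.19 SE, edgeR adjusted p = 0.112).

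Other ligands and receptor chains showed no called difference. Of 8 further ligands and soluble partners, 5 could be tested and 0 were called, and Cntf had 0 counts in all libraries. Cntf shares 78.9% of its exon length with Zfp91 on the same strand, and its level carries that uncertainty. Clcf1, a ligand of the receptor of ciliary neurotrophic factor, had the smallest p, at 11.2 and 8.78 CPM in Ovx and 5.62 and 9.79 CPM in Sham libraries (edgeR adjusted p = 0.659). Osm, the ligand of Osmr and named here after its values were seen, was at 0.507 and 2.08 CPM in Ovx and 1.52 and 1.69 CPM in Sham libraries. The ligand averaged 1.29 ± 1.11 CPM in Ovx and 1.604 ± 0.124 CPM in Sham libraries (SD, n = 2), far below its receptor chain in every library. Of 5 further receptor chains, 4 could be tested and 0 were called. Cntfr, the receptor of ciliary neurotrophic factor, was at 3.85 and 1.77 CPM in Ovx and 7.36 and 7.43 CPM in Sham libraries (log2 fold change -1.39 ± 0.44 SE, edgeR adjusted p = 0.145). It was called lower with no filter (0.0490), and 1 chain of the list was called higher without Sham 2.

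The kinases and the other STATs did not pass either, with 0 of 10 called and a median log2 fold change of 0.11. Tyk2, a kinase of the JAK family, had the smallest p (22.0 and 26.7 CPM in Ovx, 14.9 and 14.8 CPM in Sham libraries, log2 fold change 0.71 ± 0.20 SE, edgeR adjusted p = 0.111). It was called with no filter on low counts (0.0485).

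Genes that STAT3 is known to switch on rose in part. Of 23 that could be tested, of 24 listed, 8 were higher and 0 lower, against 2.98% of all genes called higher, with a median log2 fold change of 0.44. The list was written with results of these data known, and several of its genes also answer to other signals. The 3 with the smallest p were Ccl2, a chemokine that draws monocytes (38.8 ± 5.49 CPM in Ovx and 1.76 ± 1.04 CPM in Sham libraries, SD, n = 2, 21.95-fold), Irf1, a transcription factor of the interferon response (2.21-fold), and Cebpb (2.27-fold). Their edgeR adjusted p lay at 0.00302, 0.00417 and 0.00707. Cebpb shares 20.7% of its exon length with Tmem189 on the opposite strand, and its value carries that uncertainty.

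Of 18 genes that control Il6 RNA, 8 were higher and 0 lower, against 2.98% and 1.20% of all genes, and the other 10 did not pass. Their median log2 fold change was 0.58, and 15 of the 18 had both Ovx libraries above both Sham libraries, as did 25.5% of all genes. Nfkbia, the inhibitor of NF-kB and itself one of its targets, was at 1026 and 1063 CPM in Ovx and 383 and 469 CPM in Sham libraries, a 2.45-fold rise (edgeR adjusted p = 0.00434). Zfp36 (tristetraprolin), which speeds the decay of AU-rich transcripts, was at 5919 and 5803 CPM in Ovx and 3488 and 3340 CPM in Sham libraries, a 1.72-fold rise (edgeR adjusted p = 0.00482). Cebpb, a C/EBP factor first described at the Il6 promoter, is in this list too. Zc3h12a (Regnase-1), which degrades Il6 RNA, and Arid5a, which stabilizes it, were named after their values were seen. Zc3h12a rose 2.86-fold (edgeR adjusted p = 0.0173) and Arid5a 1.82-fold (edgeR adjusted p = 0.0155).

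**Figure D4:**
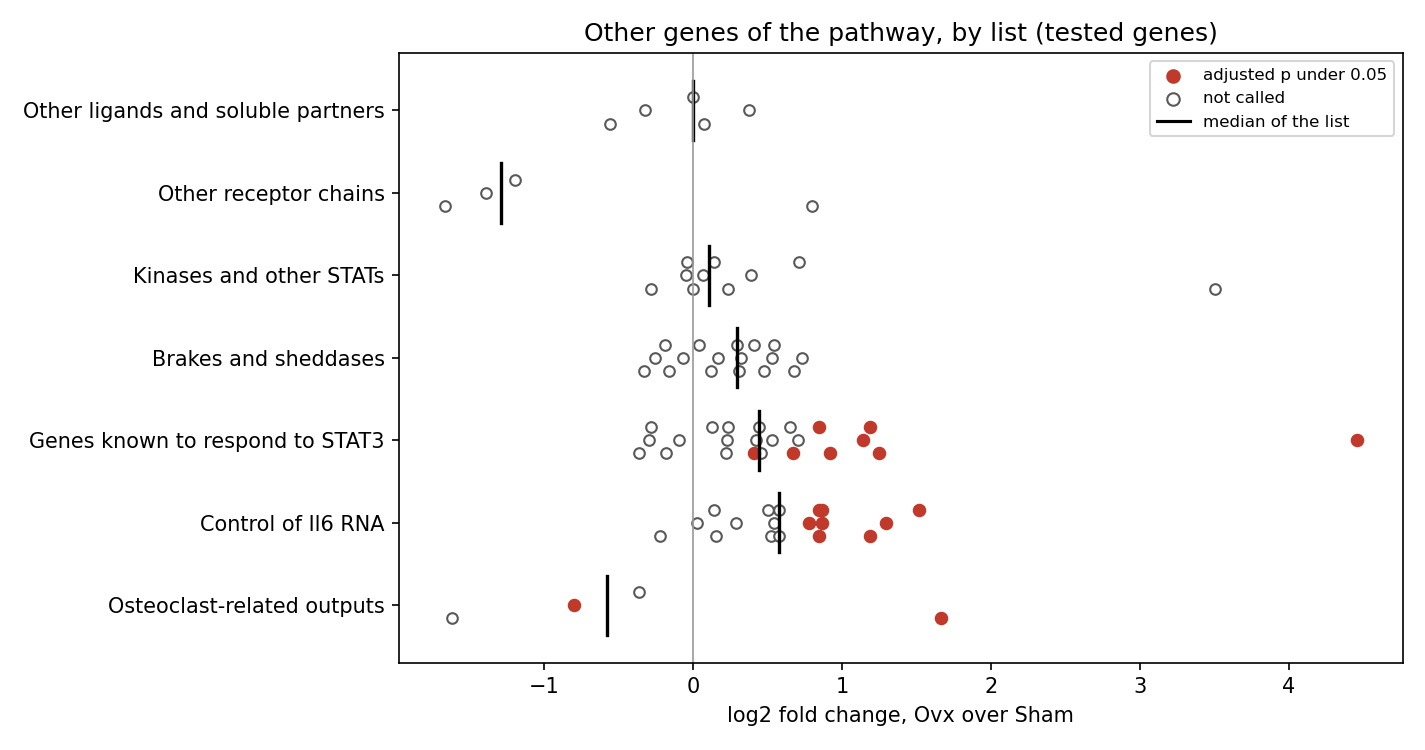
Log2 fold change, Ovx over Sham, of each tested gene in 7 lists of other pathway genes (horizontal axis), filled where the edgeR adjusted p is under 0.05, with a vertical bar at each list's median. Called genes lie in the list of STAT3 targets (8), in that of the control of Il6 RNA (8) and in the osteoclast-related outputs (2), and none in the other 4 lists.

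Genes listed as outputs of gp130 signalling towards osteoclasts were called in both directions. The part of gp130 signalling in their levels was not tested. Csf1, the growth factor of osteoclast precursors, was at 152 and 191 CPM in Ovx and 48.8 and 59.3 CPM in Sham libraries and rose 3.17-fold (edgeR adjusted p = 0.00450). Tnfrsf11b (osteoprotegerin), the decoy receptor that blocks RANKL, was at 599 and 636 CPM in Ovx and 1054 and 1093 CPM in Sham libraries and fell by 0.80 on the log2 scale (edgeR adjusted p = 0.00775). Of the 4 listed genes, Tnfsf11 (RANKL) and Sost were not called. The 1 higher and 1 lower gene stand beside 2.98% and 1.20% of all genes tested. Tnfsf11 was at 5.24 and 7.79 CPM in Ovx and 7.98 and 8.73 CPM in Sham libraries (log2 fold change -0.36). Sost was at 0.465 and 1.195 CPM in Ovx and 3.26 and 1.825 CPM in Sham libraries (log2 fold change -1.62). Each had its Ovx libraries below its Sham libraries, as did 23.9% of all genes tested.

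The genes whose pattern over the 4 libraries was most like that of Il6 were found by the root mean square distance of centred log2 CPM, among 10077 genes whose mean level reached 5 CPM. They were Tnfaip2 (distance 0.0974 log2 units), Cxcl1 (0.112), Gpnmb (0.162), Ccl7 (0.194) and Rtn1 (0.201). Tnfaip2, a gene induced by tumour necrosis factor, was at 51.0 and 44.5 CPM in Ovx and 5.13 and 4.85 CPM in Sham libraries. Cxcl1 and Ccl7 are chemokines, at 230.2 and 233 CPM and at 21.4 and 26.1 CPM in Ovx libraries, against 27.0 and 20.2 CPM and 2.45 and 2.14 CPM in Sham libraries. With 4 libraries the distance mostly reads the size of the group difference.

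Markers of other cell types moved beside the rise of Il6. The shares of all genes called, 2.98% higher and 1.20% lower, are the background of each count of calls that follows. Of 9 monocyte and macrophage markers 0 were called by edgeR (0 to 3 across other scalings, tools and filters, and 4 without Sham 2), with summed levels of 108 and 145 CPM in Ovx and 69.6 and 79.2 CPM in Sham libraries. In 6 of the 9 (Adgre1, Lyz2, Cd14, Mpeg1, C1qa and C1qb) both Ovx libraries lay above both Sham libraries, as in 25.5% of all genes tested. Lyz2, the most abundant, was at 42.4 and 78.6 CPM in Ovx and 31.4 and 24.3 CPM in Sham libraries (log2 fold change 1.12, edgeR adjusted p = 0.0889), and it was called with DESeq2 (0.00114), no filter, a mean of at least 5 CPM and the replicate block. Of the defining markers, Adgre1 was at 1.56 and 0.831 CPM in Ovx and 0.268 and 0.134 CPM in Sham libraries, and Csf1r, whose groups overlapped, at 0.973 and 5.51 CPM in Ovx and 0.0892 and 8.504 CPM in Sham libraries.

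Of 7 pan-leukocyte markers 0 were called, with sums of 30.9 and 41.1 CPM in Ovx and 30.6 and 24.6 CPM in Sham libraries. Coro1a, the most abundant of them, was at 10.7 and 9.51 CPM in Ovx and 7.05 and 5.43 CPM in Sham libraries. Of 8 neutrophil markers Elane and Mpo were higher, with sums of 151 and 216 CPM in Ovx and 93.3 and 46.6 CPM in Sham libraries. Mpo was the largest part of both Ovx sums. In 4 of the 8 (S100a8, Elane, Mpo and Retnlg) both Ovx libraries lay above both Sham libraries, as in 25.5% of all genes tested. The groups of S100a9, Ly6g, Ngp and Camp overlapped. The defining Mpo was at 58.4 and 110.3 CPM in Ovx and 3.39 and 0.490 CPM in Sham libraries, and S100a8 at 28.4 and 29.8 CPM in Ovx and 24.3 and 13.3 CPM in Sham libraries. The lymphocyte list had 1 of 4 tested genes higher, with sums of 9.72 and 16.9 CPM in Ovx and 2.99 and 3.25 CPM in Sham libraries, and Cd3e had counts in Ovx 2 alone. The part of these cells in the result was not tested.

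Stromal and skeletal markers were called as well. Of 7 fibroblast markers 5 were higher, with a median log2 fold change of 2.31. For 6 of the 7, all but Dcn, both Ovx libraries lay above both Sham libraries, as in 25.5% of all genes tested. The sums, which are mostly Dcn, overlapped, at 5895 and 6563 CPM in Ovx and 4087 and 6471 CPM in Sham libraries. The defining Dpt was at 106 and 108 CPM in Ovx and 11.5 and 21.2 CPM in Sham libraries. Pi16, the other defining marker, was at 15.56 and 18.65 CPM in Ovx and 0.669 and 2.54 CPM in Sham libraries. Dcn, the most abundant of them, was at 5536 and 6181 CPM in Ovx and 4033 and 6380 CPM in Sham libraries. Of 7 pericyte and smooth muscle markers 3 were higher, with sums of 579.7 and 627 CPM in Ovx and 305 and 333 CPM in Sham libraries, and the defining Rgs5 was at 295 and 361 CPM in Ovx and 5.67 and 46.4 CPM in Sham libraries. Cspg4, whose mean level was the highest of that list, lay the other way, at 214.5 and 221.6 CPM in Ovx and 283.5 and 266.2 CPM in Sham libraries (log2 fold change -0.33, edgeR adjusted p = 0.164). Of 8 endothelial markers 0 were called (5 higher without Sham 2), with sums of 46.9 and 77.0 CPM in Ovx and 14.8 and 48.6 CPM in Sham libraries. Of 12 skeletal markers 3 were higher (Prrx1, Pdgfra and Cxcl12) and 5 lower (Col2a1, Acan, Sp7, Ibsp and Alpl). Their sums, which are mostly Col2a1, were 55725 and 50261 CPM in Ovx and 95768 and 88998 CPM in Sham libraries. Erythroid markers (3 of 8 tested higher, sums 137 and 174 CPM in Ovx and 49.0 and 29.6 CPM in Sham libraries), megakaryocyte markers (0 of 3 called, sums 7.06 and 7.48 CPM in Ovx and 2.85 and 12.3 CPM in Sham libraries) and osteoclast markers (1 of 3 higher and 1 lower, sums 359 and 347 CPM in Ovx and 204 and 279 CPM in Sham libraries) complete the lists. No listed marker had 0 counts in all 4 libraries. The part of stromal and other cells in the family's values was not tested either.

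Socs3 and several STAT3 targets also respond to the handling of tissue. Of 9 dissociation and stress genes 2 were higher and 1 lower (Hspa1a), with sums of 41168 and 40773 CPM in Ovx and 38958 and 35369 CPM in Sham libraries. Atf3 was at 1753 and 1670 CPM in Ovx and 879 and 949 CPM in Sham libraries (1.87-fold), and Fos, which the list of STAT3 targets also holds, at 7091 and 6911 CPM in Ovx and 5397 and 5143 CPM in Sham libraries (1.33-fold). Of the genes not called, Jun and Ier2 also had both Ovx libraries above both Sham libraries. Hspa1b, not called either, lay the other way, at 2.92 and 1.09 CPM in Ovx and 4.95 and 6.68 CPM in Sham libraries. Of the 9 genes, 4 thus lay above and 2 below, where 25.5% and 23.9% of all genes tested did so. Egr1, the most abundant, was at 12972 and 14428 CPM in Ovx and 14071 and 13472 CPM in Sham libraries, and its groups overlapped. The part of dissociation in the level of Socs3 was not tested.

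**Figure D5:**
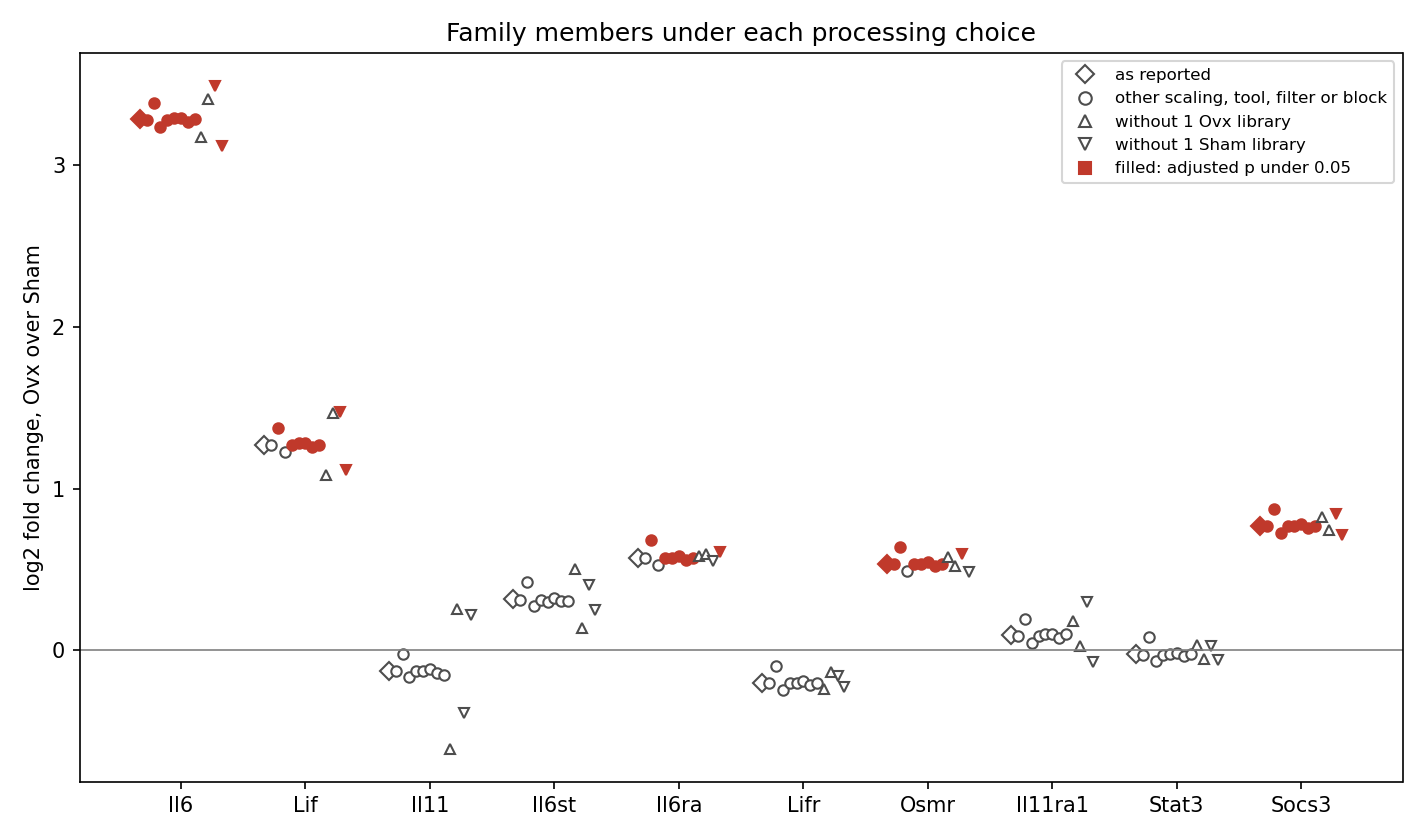
Log2 fold change, Ovx over Sham, of each family member as reported and under 12 alternatives (vertical axis), filled where the adjusted p is under 0.05. Il6, Lif, Il6ra, Il6st, Osmr and Socs3 stay above 0 throughout, and Lifr stays below 0. Calls vanish where 1 Ovx library is left out, and Il11, Il11ra1 and Stat3 lie on both sides of 0.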

How the data were processed

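The values are raw read counts per Ensembl gene in 1 table for all libraries, as deposited by the authors. The submitters' processing notes name Trim Galore 0.6.6 for trimming, featureCounts 2.0.1 for counting and the build GRCm38. The aligner is not given in the sources used here, nor are the annotation release and the strand setting. Libraries were made from TRIzol RNA with a SMARTER mRNA kit, per the labels' protocols. GENCODE M21 (GRCm38) gave symbols and exon lengths for 55227 of 55487 IDs. Genes were kept by filterByExpr at its defaults, scaled by TMM and tested with edgeR 4.0.16 (quasi-likelihood F test, two-sided, R 4.3.3, group alone, 2 residual degrees of freedom, prior 5.29, common biological coefficient of variation 0.317). The SE is the absolute log2 fold change over the square root of F. Alternatives used limma 3.58.1, DESeq2 1.42.0, other scalings and filters, a replicate block and leaving out each library. The edgeR test was tried on simulated counts. Promoters are from RefSeq (GRCm38.p6). The members and the 20 gene lists were chosen with earlier results of these data known. Besides members, the rule named per pathway list up to 3 called genes by smallest p in each direction (or the gene with the smallest p), per marker list the most abundant and defining genes, and the 5 genes nearest Il6.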

Additional observations from a re-analysis of the deposited data

How the results depend on the processing

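The number of family members called higher, 3 as reported, was 5 with library totals only, DESeq2, limma-voom, no filter, a mean of at least 5 CPM and the replicate block, where Lif and Il6ra joined. It was 3 with RLE and 2 with upper-quartile scaling, and between 0 and 4 with 1 library left out, where the lone library of a group is assumed to vary like the other group's pair. The number called lower was 0 throughout. Over all genes, 510 higher and 206 lower as reported, DESeq2 gave 930 and 486 and no filter 1112 and 544. The lower count was 329 with the replicate block, 406 at a mean of 5 CPM and 313 with limma-voom. Without 1 library the counts ran from 0 (without either Ovx library) to 1277 higher and 558 lower (without Sham 2), with 878 and 412 without Sham 1. Same-numbered libraries did not deviate together (correlation 0.0116 over 17120 genes). With 1 pair of libraries per group this cannot exclude a pairing. The labels name none, so the block is an alternative only. Signs turned for Stat3 with library totals (0.082, a scaling that shifts the median gene by 0.106) and, over the fits without 1 library, for Stat3 (-0.057 to 0.034), Il11 (-0.61 to 0.26) and Il11ra1 (-0.074 to 0.30). They turned too for Egr1 (0.099 with library totals, 0.0029 with no filter, -0.072 to 0.085 without 1 library) and Dcn (-0.12 to 0.55). The cause was not tested. Il6 and Socs3 kept direction and call under 10 of 12 alternatives, and lost the call without either Ovx library. Beyond the members, 24 genes were read, by smallest p per pathway list and highest mean CPM per marker list. Of their 287 values, 238 kept direction and call. Not all of these genes are printed above, and other genes printed above were not read in this way. The pathway lists, read under these alternatives after the data were seen, gave 7 to 9 STAT3 targets higher (11 without Sham 2) and 8 to 10 genes of the control of Il6 RNA, and 0 of either without Ovx 1 or without Ovx 2. All marker lists had 0 calls without either Ovx library. Without Sham 1, 4 neutrophil and 6 erythroid markers were higher, and without Sham 2, 4 monocyte and macrophage, 5 endothelial and 7 fibroblast markers and 2 sort antigens. Depth limits genes near 1 CPM, such as Osm and Adgre1.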
